A study of Homo sapiens with 7 samples.

Results

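The EGF receptors and their ligands were examined in PIXUL-ChIP-seq peak lists of HCT116 cells, a human colorectal carcinoma line. The 10 genes were 4 receptors (EGFR, ERBB2, ERBB3 and ERBB4) and 6 ligands (AREG, EREG, TGFA, HBEGF, BTC and EGF), out of 20163 protein-coding genes of the GENCODE annotation on hg19. They were taken by name, and every interval of 6 deposited lists that touched a gene body or the 10 kb on either side of it was collected. That gave 145 intervals. HCT116 cells at about 200000 cells per well were crosslinked and sheared for 6 min in 100 μl with PIXUL, a sonicator for 96-well plates. Each antibody had 1 library from 1 well, so no value below has a replicate error and no test between conditions was possible. The lists were for H3K4me3 and H3K9Ac, marks of active promoters, H3K4me1, a mark of enhancers and promoter flanks, H3K36me3, which follows transcription through gene bodies, H3K27me3, the Polycomb mark, and CTCF, a zinc-finger protein that binds insulators. The H3K27Ac library was not analysed here.

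Receptors of the EGF family are tyrosine kinases of the cell surface that pair with themselves or with each other when a ligand binds. EGFR binds EGF, TGF-alpha, amphiregulin, epiregulin, betacellulin and HB-EGF, ERBB2 has no known ligand and serves as a partner, ERBB3 signals chiefly through its partners, and ERBB4 binds neuregulins and some of the EGF-like ligands. The ligands are made as membrane-bound precursors and are released by metalloproteases, and signalling through MAP kinases and PI3-kinase drives growth of intestinal epithelium and of colorectal tumours, in which EGFR is a drug target.

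The values of an interval used here are 2 measures from the authors' peak caller, the fold enrichment over background, which is a linear ratio, and the −log10 of its q-value. An interval is called a peak below when it passed the limits of the study's Methods. These were a q-value under 1e-03 with a fold enrichment above 2 for H3K4me1 and H3K27me3, and a q-value under 1e-10 with a fold enrichment above 5 for the other histone marks. The Methods name none for CTCF, which was given the latter limits here. Of the 145 intervals, 68 were peaks. Percentages of a gene or intron covered by a mark count all of its intervals, whether peaks or not. Read counts are not part of these lists. The depth is therefore unknown, and numbers of intervals were not compared between marks. H3K4me3 peaks stood at the transcription start site (TSS) of 4 of 8 colon epithelial markers (EPCAM, CDH1, KRT8 and KRT18, and not KRT20, CDX1, VIL1 or CEACAM5), a share no higher than the 59.1% of all protein-coding genes, so this does not check the cell type. Of 6 listed markers of other cell types, 5 were matched to the annotation, of which PTPRC, CD3E, ALB and GFAP had none and COL1A1 had 1, with a fold enrichment of 9.21.

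The promoter sequences of the 7 genes below are shown because they range from the most to the least marked TSS of the family and from CpG-rich to CpG-poor. Each is the stretch of 120 bases just before the annotated 5′ end in GRCh37 (hg19), read 5′ to 3′ on the strand of the gene, with CpG dinucleotides in capitals. They lie at chr7:55086590-55086709 (EGFR, plus strand), chr5:139726189-139726308 (HBEGF, minus), chr4:75719734-75719853 (BTC, minus), chr4:75310733-75310852 (AREG, plus), chr4:75230742-75230861 (EREG, plus), chr2:213403566-213403685 (ERBB4, minus) and chr4:110833919-110834038 (EGF, plus).
EGFR: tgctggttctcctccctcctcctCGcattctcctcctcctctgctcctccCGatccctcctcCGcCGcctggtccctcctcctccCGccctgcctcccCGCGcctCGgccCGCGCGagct
HBEGF: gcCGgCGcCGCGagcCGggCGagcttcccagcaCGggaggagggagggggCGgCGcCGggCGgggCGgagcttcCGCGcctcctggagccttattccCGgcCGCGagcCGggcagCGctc
BTC: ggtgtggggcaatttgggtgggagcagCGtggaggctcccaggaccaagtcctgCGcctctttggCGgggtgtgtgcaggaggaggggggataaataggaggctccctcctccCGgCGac
AREG: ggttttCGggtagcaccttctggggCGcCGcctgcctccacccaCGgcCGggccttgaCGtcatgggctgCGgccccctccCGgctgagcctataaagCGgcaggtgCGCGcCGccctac
EREG: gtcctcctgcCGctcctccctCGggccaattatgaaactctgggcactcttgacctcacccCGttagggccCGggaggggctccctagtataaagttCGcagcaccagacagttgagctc
ERBB4: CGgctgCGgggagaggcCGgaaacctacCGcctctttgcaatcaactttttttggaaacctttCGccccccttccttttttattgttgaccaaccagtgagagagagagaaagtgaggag
EGF: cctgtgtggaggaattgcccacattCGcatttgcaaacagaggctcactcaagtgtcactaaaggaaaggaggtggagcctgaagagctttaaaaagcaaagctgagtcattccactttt

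Over the 250 bases before the TSS, the promoter of HBEGF held 33 CpG dinucleotides and that of EGFR 25, against a median of 18 over all 20163 genes. The promoter of EGF held 3, under the median of 5 for genes without an H3K4me3 peak. ERBB4 held 14, between that median and the median of 23 for genes with an H3K4me3 peak. The 2 genes without the mark thus differed in base composition, with a GC content of 48.8% at EGF and 57.2% at ERBB4. Of the 12444 genes with at least as many CpG dinucleotides as ERBB4, 83.0% carried H3K4me3. The share was 67.1% for the 17674 genes with at least as many as EGF. Both groups include the most CpG-rich promoters. The other members, which all had H3K4me3 peaks, held 27 (TGFA), 23 (AREG), 22 (ERBB3), 11 (ERBB2), 11 (EREG) and 8 (BTC). ERBB2, EREG and BTC thus had the mark with fewer CpG dinucleotides than ERBB4, which lacked it.

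In the same 250 bases, 4 short motifs were searched on both strands. The TATA box TATAAA, present in 9.40% of all promoters, was found at AREG, 29 to 24 bases before the 5′ end, and at EREG, 32 to 27 bases before it. AREG also held the cAMP response element TGACGTCA, 65 to 58 bases before the 5′ end, which was found in 2.4% of promoters. The GC box GGGCGG, in 58.6% of promoters, had 5 matches at HBEGF, of which 1 pair shares a base, 3 at TGFA, 2 at EGFR and 1 each at AREG and ERBB4. The AP-1 site TGANTCA, found in 4.72% of promoters, was held by ERBB3 and by EGF, at EGF 17 to 11 bases before the 5′ end. BTC and ERBB2 held none of the 4 motifs before the TSS. Before the annotated 5′ end of ERBB2, 12.2 kb from its TSS, the GC box and the AP-1 site were found. TGACGTCA and TGANTCA read the same on both strands, and no other overlap was found among the matches whose positions are given here. These are matches of letters and not binding sites.

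H3K4me3 and H3K9Ac peaks stood within 1 kb of the TSS of 8 of the 10 genes, 3 receptors and 5 ligands. The genes without either were ERBB4 and EGF, which had no interval of these marks even in the full lists over the body and 10 kb. Among all protein-coding genes, 59.1% had an H3K4me3 peak and 58.5% an H3K9Ac peak in the same window. An H3K4me1 peak lay in the window of 7 genes, the same 8 without EGFR, where the background was 49.1%. CTCF peaks were found at 4 TSSs (ERBB3, TGFA, HBEGF and BTC), against 13.6% of all genes. H3K36me3 and H3K27me3 peaks were found at 0 of 10, and the background was 0.298% and 1.22%. The shares for 10 genes chosen by name have no test.

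**Figure D1:**
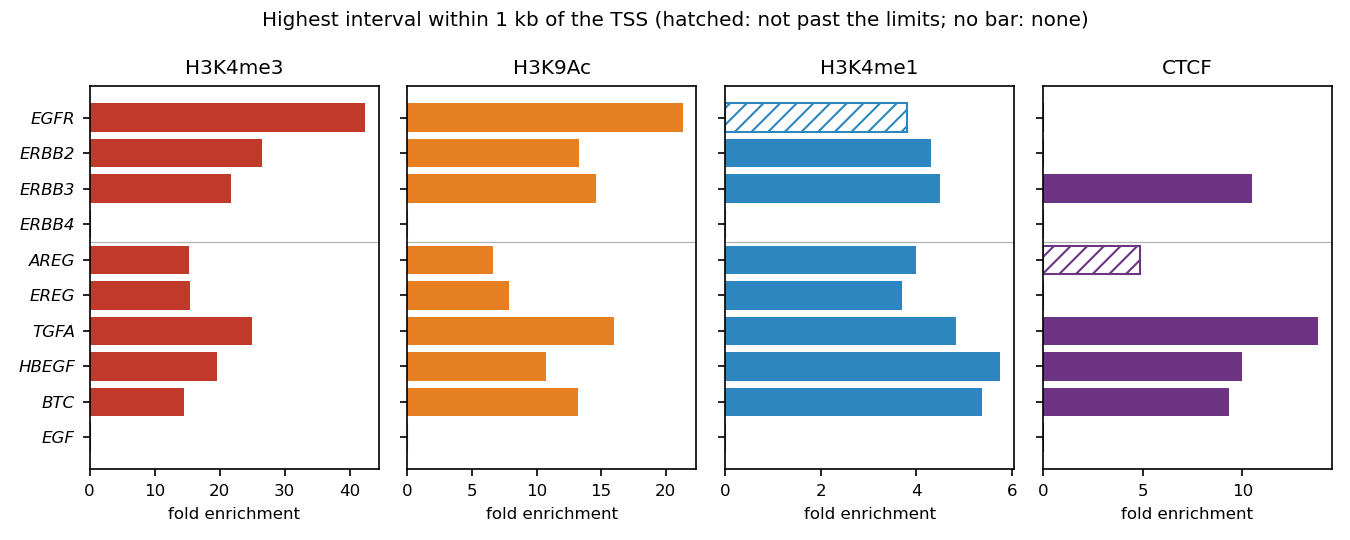
Fold enrichment (linear ratio, x axis) of the highest H3K4me3, H3K9Ac, H3K4me1 and CTCF interval within 1 kb of the TSS of each gene, receptors above the grey line and ligands below it, 1 library per mark and no error bars. Filled bars are peaks past the limits and hatched bars are intervals that were not. EGFR has the longest H3K4me3 bar (42.3) and H3K9Ac bar (21.3), and ERBB4 and EGF have no bar.

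Over the whole gene body, 8 genes had an H3K4me3 peak and the same 8 an H3K9Ac and an H3K4me1 peak, with a background of 63.3%, 62.9% and 60.7%. CTCF peaks overlapped 8 gene bodies, all but EGFR and AREG, where the background was 43.5%. The count was 7 when at least 50% of the peak had to lie inside the body. No body held an H3K36me3 or H3K27me3 peak, as was the case for all but 0.496% and 2.96% of genes. In the full lists, counted over the body and 10 kb, all 10 genes had H3K4me1 and CTCF intervals (background 81.3% and 78.9%) and 8 had H3K4me3 and H3K9Ac intervals (72.9% and 79.1%). H3K36me3 intervals were listed for 7 genes (65.9%), without ERBB4, BTC and EGF. H3K27me3 intervals were listed for 0 of 10, against 30.0% of all genes. The nearest H3K27me3 interval lay 25.9 kb from ERBB2 and 26.6 kb from EGFR, and between 41.1 and 1875 kb from the other genes.

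EGFR, which binds all of these ligands, had the strongest H3K4me3 and H3K9Ac promoter peaks of the family. The gene lies at chr7:55086710-55279321 on the plus strand and has 28 exons in its canonical transcript. Its H3K4me3 peak reached a fold enrichment of 42.3 (−log10 q-value 157), higher than 98.6% of the 11924 genes with such a peak (rank 165). The H3K9Ac peak reached 21.3, higher than 96.1% of marked genes. Both peaks started close to the TSS and reached farther downstream than upstream. H3K4me3 extended from 528 bp before the TSS to 1595 bp after it, and H3K9Ac from 632 bp before to 2904 bp after. The H3K4me1 interval over the same TSS had a fold enrichment of 3.81 (−log10 q-value 2.96), just short of the limit of 3, and no CTCF interval was listed there.

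The first intron of EGFR, 123 kb long, carried 5 H3K4me1 peaks between 44.4 and 117 kb downstream of the TSS. Their fold enrichments were 7.77, 5.87, 6.13, 5.74 and 6.38 in order from the TSS, and their widths were 4.0, 10.9, 8.21, 10.1 and 9.17 kb. All 5 were therefore higher than the H3K4me1 interval at the TSS itself. Together they spanned 42.4 kb, more than the H3K4me1 peaks away from the TSS of any other member, of which EREG came next with 25.6 kb. This total is not scaled to gene length. As a share of the gene body, H3K4me1 intervals covered 24.5% at EGFR, close to ERBB2 (24.0%) and below EREG (78.5%) and AREG (73.7%). The share was lower at the remaining members. All 5 peaks of the EGFR intron were overlapped by H3K9Ac intervals, and none by H3K4me3. The first intron held 7 such H3K9Ac intervals with fold enrichments between 3.0 and 5.30, none past the limits, since their −log10 q-values did not exceed 7.55.

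H3K36me3 at EGFR was divided differently between the first intron and the rest of the gene. From exon 2 to the end, 6 intervals covered 73.5% of 69.3 kb, and the widest, 19.4 kb with a fold enrichment of 3.19, ran across exons 2 to 13. In the first intron 7 short intervals covered 6.58%. In 5 of the other 6 members with H3K36me3 the first intron held 0 intervals. These introns were shorter than that of EGFR: 198 bp at HBEGF, 1.13 kb at AREG, 3.37 kb at ERBB3, 6.68 kb at ERBB2 and 38.8 kb at TGFA. The H3K4me3 peak covered 100% of the HBEGF intron and 92.9% of the AREG intron. The coverage from exon 2 on was 92.8% at AREG, 76.1% at ERBB2, 63.6% at HBEGF, 39.5% at ERBB3 and 19.4% at TGFA. EREG was the exception, with 96.5% of the first intron and 100% of the rest covered. None of these intervals passed the limits, and 1 short EGFR interval in the first intron, at 19.5 to 20.4 kb from the TSS with a fold enrichment of 3.63, has a near-identical copy elsewhere in hg19. EGFR held 2 CTCF intervals of fold enrichment 3.04 and 6.26, neither a peak.

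**Figure D2:**
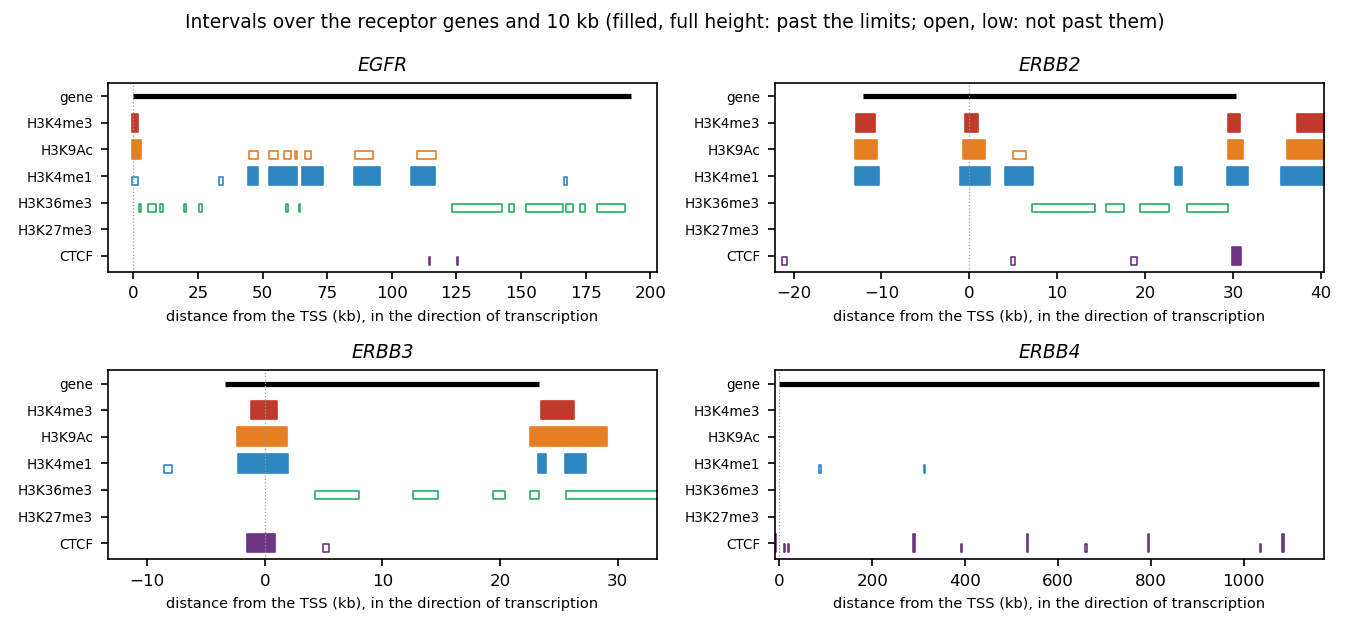
Intervals of the 6 lists over each receptor gene and the 10 kb around it, by distance from the TSS in kb (x axis, downstream to the right) and by mark (y axis). Black bars are gene bodies, tall filled boxes are peaks past the limits, low open boxes are intervals that were not, and very narrow intervals are drawn at a minimum width. The 5 H3K4me1 peaks of EGFR lie between 44.4 and 117 kb, and ERBB4 shows CTCF and 2 H3K4me1 intervals alone.

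ERBB2, the partner receptor that is amplified in some breast, gastric and colorectal cancers, lies at chr17:37844167-37886679 on the plus strand among closely spaced genes. The TSS of its canonical transcript is 12.2 kb downstream of the annotated 5′ end. At this TSS the H3K4me3 peak had a fold enrichment of 26.5, higher than 69.6% of marked genes, and the H3K9Ac peak 13.3, close to the median of 13.1 over all genes with that mark. The H3K4me1 peak there measured 4.30. A second H3K4me1 peak with a fold enrichment of 6.72 lay 4.03 to 7.25 kb downstream, over the end of the first intron and exon 2, together with an H3K9Ac interval of 4.10 that was not a peak.

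The other H3K4me3 peaks of the ERBB2 region contained the TSSs of neighbouring genes. They measured 12 at PGAP3, 16.5 at MIEN1 and 9.33 at GRB7, whose product is an adaptor that binds ERBB receptors. The peak at PGAP3 also contained the annotated 5′ end of ERBB2, so it cannot be given to either gene alone. ERBB2 had the highest of these 4 peaks. The highest CTCF value among the 10 regions, 24.0 with a −log10 q-value of 80.0, was at the end of ERBB2, in a peak that contains the MIEN1 TSS. H3K36me3 covered 40.8% of the gene body in 4 intervals with fold enrichments of 2.92 to 3.41.

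ERBB3, which binds neuregulins and has little kinase activity of its own, lies at chr12:56470583-56497289 on the plus strand. Its H3K4me3 peak (21.7) stood near the middle of all marked genes, above 45.9% of them, and its H3K9Ac peak (14.6) above 65.1%. These peaks were more symmetric about the TSS than those of the other members. The H3K4me3 peak reached 1187 bp upstream and 1040 bp downstream, and 46.7% of its width was downstream of the TSS, whereas the share was between 66.2 and 84.0% at the other 7 genes. The H3K4me1 peak (4.49) and the CTCF peak (10.5) contained the same TSS, so that 4 lists had a peak there. Beyond the 3′ end, the promoter of PA2G4, which encodes an ERBB3-binding protein, carried H3K4me3 at 24.8 and H3K9Ac at 12.4, and that H3K9Ac peak overlapped part of the last exon of ERBB3. H3K36me3 over the ERBB3 body covered 29.3% in intervals of 2.89 to 3.03, and an interval of 6.08 lay downstream over the PA2G4 side of the region.

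ERBB4, a receptor for neuregulins and several EGF-like ligands, had no promoter mark. The gene is the longest of the family, 1163 kb at chr2:212240442-213403565 on the minus strand. No H3K4me3, H3K9Ac, H3K36me3 or H3K27me3 interval was listed over it or within 10 kb. The nearest H3K4me3 interval was 612 kb from the gene with a fold enrichment of 8.67, the nearest H3K36me3 interval 700 kb away and the nearest H3K27me3 interval 1875 kb away. Its list entries were 2 H3K4me1 intervals in the first intron (3.53 and 3.80), neither past the limits, and 10 CTCF intervals.

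Of the ERBB4 CTCF intervals, 5 were peaks, and they were spread across the locus. Their fold enrichments were 8.87 upstream of the gene, 7.01 in intron 1, 9.72 in intron 2, 12 in intron 5 and 15.8 in intron 20. The last lay 1083 kb from the TSS, near the 3′ end. ERBB4 was set beside protein-coding genes of at least 500 kb, a limit well under its own length. The shares are given separately, and genes lacking all of these marks together were not counted. Of 324 protein-coding genes of at least 500 kb, 33.0% had neither an H3K4me3 nor an H3K9Ac interval, 34.9% had no H3K27me3 interval, 65.1% had no H3K36me3 interval, the median number of CTCF intervals was 7, and 97 had at least as many as ERBB4.

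Among the ligands, TGFA had the highest H3K4me3, H3K9Ac and CTCF peaks at the TSS, whereas H3K4me1 was higher at HBEGF and BTC. TGF-alpha is a ligand of EGFR that many carcinomas make for themselves. The gene lies at chr2:70674416-70781325 on the minus strand. Its H3K4me3 peak measured 25, above 61.5% of marked genes, its H3K9Ac peak 16.0 and its CTCF peak 13.8. H3K4me1 flanked the TSS, with a peak of 4.84 that ended 424 bp upstream and another of 4.34 that began 1179 bp downstream, which left 1602 bp without H3K4me1. The first intron held 3 further H3K4me1 peaks, of which the strongest (5.80, 7.29 kb wide) lay 26.7 to 34.0 kb downstream. It overlapped an H3K9Ac interval of 4.99 and an H3K4me3 interval of 2.82 whose −log10 q-value of 1.0 was at the edge of the list. H3K36me3 covered 12.3% of the body, the least of the 7 genes that carried it.

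HBEGF, whose product binds EGFR and ERBB4 and is also the diphtheria toxin receptor, lies at chr5:139712428-139726188 on the minus strand. Its promoter had H3K4me3 at 19.6 (above 35.5% of marked genes), H3K9Ac at 10.7 and CTCF at 10.01. Its H3K4me1 peak of 5.76 was the highest at any TSS of the family and above 78.7% of genes with that mark there. A second CTCF peak, with a fold enrichment of 17.2, stood 4.99 to 5.71 kb upstream of the TSS, and an H3K4me1 peak of 5.66 lay beyond the 3′ end, 21.5 to 24.1 kb from the TSS. H3K36me3 covered 61.2% of the 13.8 kb gene body in 2 intervals, against a median of 37.7% for genes with H3K4me3 at the TSS.

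BTC encodes betacellulin, a ligand of EGFR and ERBB4, at chr4:75669969-75719733 on the minus strand. It had the lowest H3K4me3 value of the 8 marked members, 14.5, above 15.4% of marked genes. Its H3K9Ac peak of 13.2 was by contrast close to the median over genes with that mark, above 51.8% of them. H3K4me1 (5.38) and CTCF (9.35) also had peaks at the TSS. A second H3K4me1 peak (4.89) lay over exon 2, 23.9 to 26.2 kb downstream, with an H3K9Ac interval of 3.13. No H3K36me3 interval was listed over the gene or within 10 kb, and the nearest was 87.5 kb away. BTC was thus the only one of the 8 genes with promoter marks that had none, among 7 of 10 members with an H3K36me3 interval over the body and 56.3% of all genes.

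**Figure D3:**
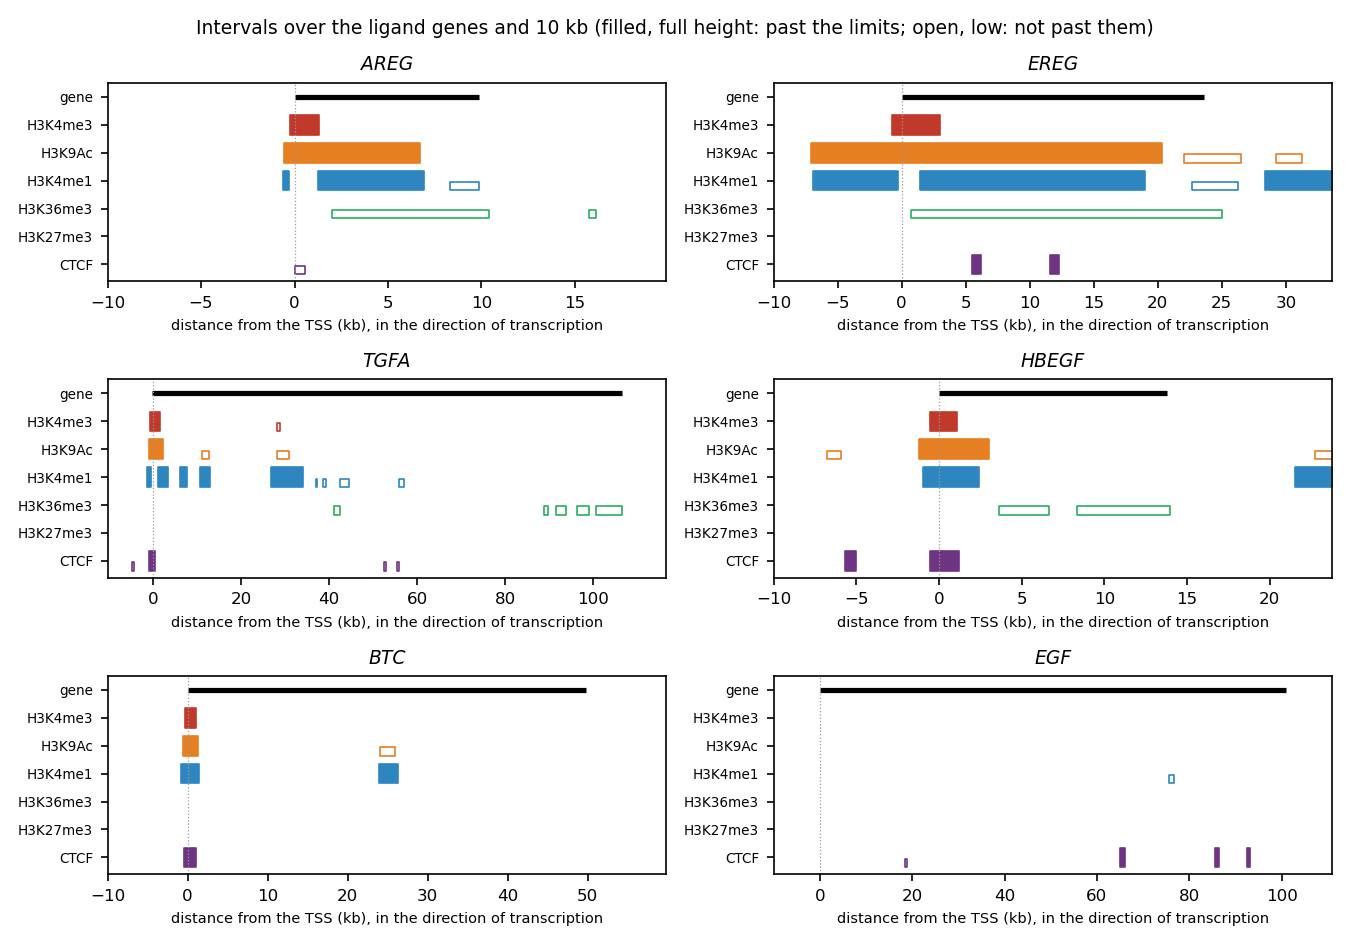
Intervals of the 6 lists over each ligand gene and the 10 kb around it, by distance from the TSS in kb (x axis, downstream to the right) and by mark (y axis). Black bars are gene bodies, tall filled boxes are peaks past the limits, low open boxes are intervals that were not, and very narrow intervals are drawn at a minimum width. The H3K9Ac box of EREG spans 27.4 kb, BTC has no H3K36me3 box, and EGF has CTCF boxes and 1 H3K4me1 interval.

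EREG and AREG encode epiregulin and amphiregulin, ligands of EGFR that are often high in colorectal tumours, and they are neighbours on chromosome 4. The fold enrichments of their peaks at the TSS were low and their gene bodies were widely covered. A fold enrichment describes a whole interval, so the height at the TSS itself is not known. H3K4me3 measured 15.4 at EREG and 15.3 at AREG, above 18.1% and 17.8% of marked genes, and H3K9Ac measured 7.86 and 6.61, above 6.93% and 1.30%. Several of their peaks were wide. The H3K9Ac peak of EREG was 27.4 kb wide, rank 45 among 12720 H3K9Ac peaks, and its H3K4me1 peak downstream of the TSS was 17.6 kb wide, rank 233 among 32292. At AREG the H3K9Ac peak was 7.24 kb wide (rank 935), but the H3K4me3 peak was 1.57 kb wide, rank 8997 among 12749, and the H3K4me1 peak just upstream of the TSS 300 bp. The H3K9Ac peak was 7.42 times as wide as the H3K4me3 peak at EREG and 4.62 times at AREG, and between 1.28 and 2.62 times at the other 6 genes.

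EREG, at chr4:75230862-75254466 on the plus strand, was covered nearly end to end. H3K36me3 covered 96.9% of the body, more than in 99.2% of protein-coding genes, H3K9Ac covered 92.7% and H3K4me1 78.5%. The H3K9Ac and H3K4me1 shares each include an interval that was not a peak, of 2.92 and 3.21. The H3K36me3 interval was 24.3 kb wide with a fold enrichment of 5.78, rank 183 of 40010 in that list, and its −log10 q-value of 8.26 left it short of the limit of 10. Over the TSS itself H3K4me1 was interrupted for 1714 bp, between peaks of 3.71 upstream and 4.93 downstream, where the H3K4me3 peak stood. CTCF had 2 peaks in the first intron, with fold enrichments of 11.0 and 7.36.

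AREG, at chr4:75310853-75320722 on the plus strand, was also widely covered, but its layout differed in part. Unlike EREG, its first intron held no H3K36me3 interval, and its only CTCF interval was not a peak. H3K36me3 covered 79.6% of the AREG body, in an interval that was not a peak. H3K4me1 covered 73.7%, including an interval of 3.57 that was not a peak, and H3K9Ac 67.8%. The H3K4me1 of AREG was interrupted for 1550 bp over the TSS, between peaks of 3.99 and 4.09. Of the 8 members with H3K4me3, 4 had an H3K4me1 peak that contained the TSS base, as did 50.2% of the 11924 genes with H3K4me3. The members without it were AREG, EREG and TGFA, where the mark flanked the TSS, and EGFR.

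AREG has a near-identical copy in hg19. The copy, annotated as AREGB at chr4:75480629-75490486, is 170 kb from AREG, its gene body is 99.55% identical and the 250 bases before the 5′ end have 0 differences, so that the AREG promoter printed above occurs at both places. Of the 8 AREG intervals, 7 have such a copy, against 1 of the other 137. The intervals at the copy resembled those at AREG. H3K4me3 measured 10.3 against 15.3 at AREG, H3K9Ac 6.87 against 6.61, and H3K36me3 3.56 against 3.43. Reads of the copies can be placed at either, and how the alignment treated them is not given in the sources used here, so the AREG values are uncertain and its levels cannot be assigned to AREG alone.

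**Figure D4:**
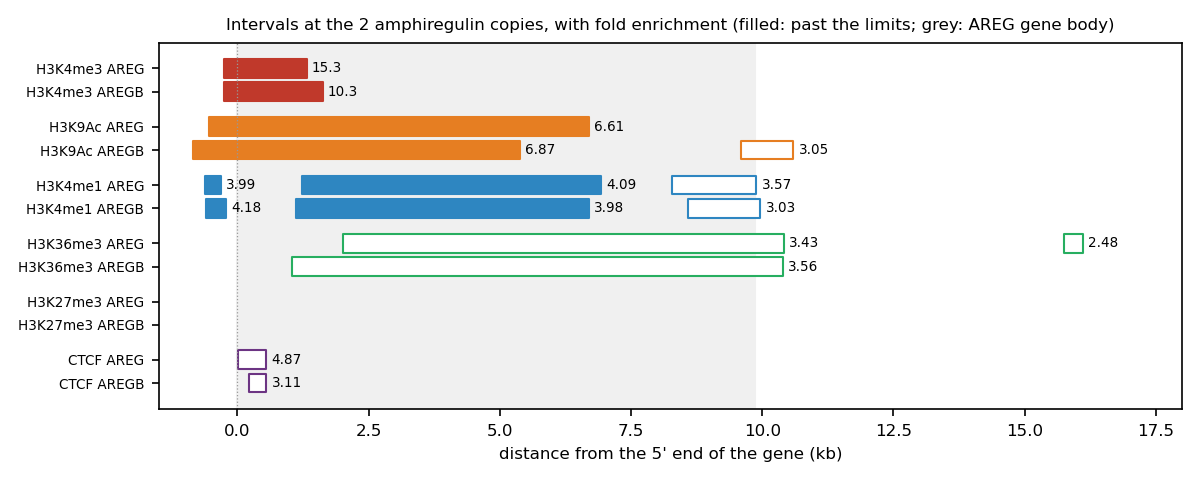
Intervals at AREG and at its near-identical copy AREGB, by distance from the 5′ end of each gene in kb (x axis), with mark and gene on the y axis and the fold enrichment printed beside each box. Filled boxes are peaks past the limits, open boxes are not, and grey is the AREG gene body. The layout is alike at both, with H3K4me3 at 15.3 and 10.3.

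EGF, the ligand that names the family, had no promoter mark. It lies at chr4:110834039-110934922 on the plus strand. No H3K4me3, H3K9Ac, H3K36me3 or H3K27me3 interval was listed over the 101 kb gene or within 10 kb, and the nearest H3K4me3 peak was 95.9 kb away. It had 1 weak H3K4me1 interval (3.08) over exon 18 and 4 CTCF intervals. CTCF peaks of 9.80, 11.3 and 12.2 lay in introns 13, 20 and 22.

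The core of the CTCF motif, 12 bases searched on both strands, matched exactly in 2 of the 16 CTCF peaks of the family, both in EGF, and in 12 of 16 with at most 1 mismatch. Over all CTCF peaks the shares were 22.4% and 65.9%. The EGF matches are shown, as they are at a gene for which CTCF was the only list with peaks, in windows of 50 bases 5′ to 3′ on the strand of the motif, with the core in capitals. They lie at chr4:110899227-110899276 (minus strand) and chr4:110920094-110920143 (plus strand) of GRCh37.
EGF intron 13: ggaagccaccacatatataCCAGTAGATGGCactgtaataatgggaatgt
EGF intron 20: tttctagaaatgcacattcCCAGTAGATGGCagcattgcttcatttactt
Both carry the same core. A match describes the letters of the window and was not tested as a binding site.

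Across the family, the order of the H3K4me3 values was EGFR (42.3), ERBB2 (26.5), TGFA (25), ERBB3 (21.7), HBEGF (19.6), EREG (15.4), AREG (15.3) and BTC (14.5), beside a median of 22.5 and middle values of 17.3 to 27.8 over all marked genes. EGFR stood above this range and EREG, AREG and BTC below it. With 1 library there is no spread by which neighbours in this order could be separated. The order for H3K9Ac was EGFR (21.3), TGFA (16.0), ERBB3 (14.6), ERBB2 (13.3), BTC (13.2), HBEGF (10.7), EREG (7.86) and AREG (6.61). EGFR led in both, and EREG and AREG, which had the widest H3K9Ac peaks at a member's TSS, were last in H3K9Ac. The H3K9Ac peak contained the whole H3K4me3 peak at all 8 TSSs.

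**Figure D5:**
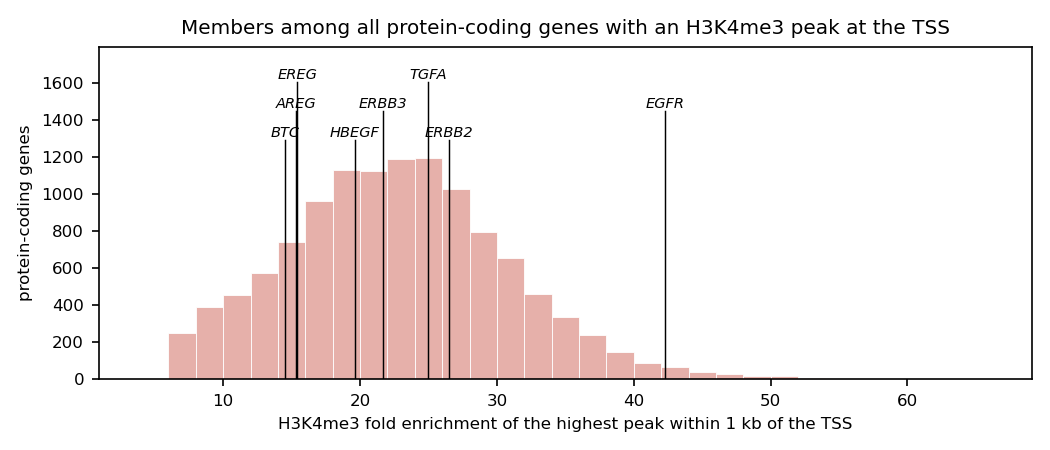
Number of protein-coding genes (y axis) by the fold enrichment of the highest H3K4me3 peak within 1 kb of the TSS (x axis, bins of 2), for the 11924 genes with such a peak in 1 library. Vertical lines mark the 8 members that have one, with EGFR at 42.3 in the right tail and BTC, AREG and EREG between 14.5 and 15.4 on the left.

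The combination of peaks at the TSS also grouped the members. ERBB3, TGFA, HBEGF and BTC had H3K4me3, H3K9Ac, H3K4me1 and CTCF, a combination that 9.07% of all protein-coding genes shared. ERBB2, AREG and EREG had the first 3 of these marks, as did 33.5% of genes. EGFR had H3K4me3 and H3K9Ac alone (12.4%), and ERBB4 and EGF had no peak of any list (33.9%).

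Most of the other pathway genes listed here also had marked promoters. H3K4me3 peaks stood at the TSS of 24 of 27 genes, with a median fold enrichment of 27.3 beside 22.5 over all marked genes, and H3K9Ac peaks at 22. In all genes these shares were 59.1% and 58.5%. All 11 adaptors and effectors (such as GRB2, SOS1 and PIK3CA), all 7 inhibitors and trafficking genes (such as ERRFI1, an intracellular inhibitor of EGFR, and CBL, its ubiquitin ligase) and all 4 sheddase genes and partners (ADAM10, ADAM17, RHBDF1 and RHBDF2) had both marks. The exceptions were the 5 other ligand genes. EPGN, NRG3 and NRG4 had neither mark, and NRG1 and NRG2, ligands of ERBB3 and ERBB4, had H3K4me3 at 7.92 and 8.15, no H3K9Ac peak and H3K27me3 intervals over 7.11% and 13.4% of their bodies. H3K36me3 intervals were listed over 21 of the 27 gene bodies and H3K27me3 intervals over 4, beside 56.3% and 20.7% of all genes. Besides NRG1 and NRG2, the genes with H3K27me3 intervals were LRIG1, with the highest coverage (23.7% of the body), and GAB1 (1.36%). LRIG1 and GAB1 had H3K4me3 and H3K9Ac peaks.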

How the data were processed

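PIXUL-ChIP-seq peak lists of HCT116 cells were used for 6 marks, 1 library each. For alignment to hg19 the authors used BWA 0.7.12, and for peak calling in each library MACS2 in broad mode with a cutoff of 0.1. The submitters' processing notes instead list MACS 1.4.2, with SAMtools 0.1.19 and bcl2fastq 2.20.0.442. The reads are given as single-end or paired-end in different places. The deposited fold enrichment is a linear ratio, and the deposited −log10 p-value and −log10 q-value are those of the whole interval. The score column that the authors deposited was not used.

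Intervals were intersected with GENCODE 44 on hg19, at a minimum overlap of 1 bp, in Python 3.11.15 (pandas 2.3.3). The TSS is that of the canonical transcript. Overlaps were tested on simulated data and checked against bedtools 2.31.1. Copies were searched with minimap2 2.31 and counted from 95% identity upward where they spanned 50% or more of the interval.

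The members and lists were chosen with earlier results of these data known, and 1 gene of the pathway list is not reported here. All 10 members are named, with every peak at the TSS. Peaks away from the TSS are given in part, and neighbouring genes are named where their TSS lies in an H3K4me3 peak. Alternatives were all deposited intervals, fold limits multiplied by 1.5, other windows, flanks, TSSs and overlaps.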

Additional observations from a re-analysis of the deposited data

How the results depend on the processing

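Of 78 alternatives to 18 counts, 68 left the count within 1.5 times the value reported and 10 moved it. With all deposited intervals in place of peaks past the limits, the regions held 27 H3K9Ac, 32 H3K36me3 and 32 CTCF intervals, and H3K36me3 was counted at 1 TSS and over 7 gene bodies, instead of 0. With flanks of 50 kb, the regions held 20 H3K4me3, 21 H3K9Ac, 55 H3K4me1 and 32 CTCF peaks, from a larger area. With the TSS base itself required, 4 members had an H3K4me1 peak instead of 7. The 8 TSSs with H3K4me3 and the 0 members with H3K27me3 were the same counts under every alternative run, and H3K9Ac was counted at 7 TSSs, instead of 8, with the fold limit multiplied by 1.5. No paired analysis was possible because no groups were compared and every antibody has a lone library. Depth is unknown, so an interval that is not listed may have been below detection, and fold enrichments of different marks are not on one scale.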

Other observations

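EREG, AREG and BTC lie on chromosome 4 with EPGN, the gene of the ligand epigen. Over the 546 kb from the start of EPGN to the end of BTC, 4 H3K4me3 peaks were listed, along with 16 H3K4me1 peaks, 6 H3K9Ac peaks and 10 CTCF peaks. The histone counts include peaks at both AREG and AREGB, whose reads can be placed at either copy. EPGN itself had none at its TSS. H3K27me3 was listed there as 1 interval with a fold enrichment of 2.60, not past the limits. In the 56.4 kb between EREG and AREG there were 4 H3K4me1 peaks and 0 CTCF intervals. These peaks include the one of 300 bp just upstream of the AREG TSS. The highest H3K4me1 peak of the stretch (6.04) lay outside the members, at chr4:75542861-75568191, between AREGB and BTC.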
